A study of Mus musculus with 4 samples.

Results

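The 10 coenzyme Q biosynthesis genes described here, Coq2, Coq3, Coq4, Coq5, Coq6, Coq7, Coq8a, Coq9, Coq10a and Coq10b, were taken by name from a table of 28723 genes measured in mouse heart. All 10 were found, and all 10 passed the minimum used for testing, a mean of 1 FPKM (read pairs normalised to transcript length and to sequencing depth) over the 4 libraries. They also averaged at least 1 FPKM in the 8-week hearts alone. Hearts of C57BL/6J mice, kept under specific-pathogen-free conditions without treatment, gave 2 poly(A) RNA libraries at 8 weeks (young) and 2 at 12 months (aged). The labels give the ages in a field named batch, so effects of age and of batch cannot be told apart. The genotype label is WT for every library. The aged libraries nevertheless carry the titles FLOX5 and FLOX6 and the young ones C4 and C5, and the labels do not say what the titles mean. Nor is it stated that the libraries stand for separate animals, and p-values therefore reflect the spread between these samples alone, which may be technical.

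Coenzyme Q (ubiquinone) is a lipid of the inner mitochondrial membrane that carries electrons from complex I, complex II and several other dehydrogenases to complex III. It is built from a benzoquinone ring, which derives from tyrosine, and a prenyl tail, which derives from the mevalonate pathway, and a group of COQ proteins held together at the inner membrane modifies the ring. Heart muscle, which depends on oxidative phosphorylation, is rich in it, and inherited defects of the human COQ genes cause primary coenzyme Q deficiency.

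At 12 months the coenzyme Q genes did not move as a block. Coq7, the hydroxylase of a late step of ring modification, fell by 36.8%, while Coq9, the lipid-binding protein that Coq7 depends on, and Coq5, the ring C-methyltransferase, rose by 22.5% and 22.4%. Of the 10 genes, 2 were called higher and 1 lower, and 7 did not pass the threshold, an adjusted p below 0.05 in edgeR's quasi-likelihood test with Benjamini-Hochberg adjustment over all 12027 tested genes. The calls of Coq9 and Coq5 were lost under some of the alternative settings given below, and that of Coq7 under none. The share called among all tested genes was 37.6%, with 20.1% higher and 17.5% lower, and the members' share of calls was near it. The median log2 fold change was 0.08 over the 10 members and 0.006 over all tested genes, and no member had an estimate beyond 1.58-fold in either direction. The FPKM of both ages did not overlap in 8 of the 10 members (6 higher and 2 lower at 12 months), against 72.5% of all tested genes (41.4% higher and 31.1% lower).

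The libraries held 51328364 to 63828074 counts each. Heart muscle markers were abundant at both ages (8 of 8 tested, 3 called higher and 3 lower at 12 months, summed level 13642 and 13667 FPKM when young, 13549 and 13376 FPKM when aged). That sum mixes opposite changes, such as a fall of Myl2 (2425 and 2326 against 1137 and 1380 FPKM) and a rise of Ryr2 (22.2 and 21.8 against 49.5 and 44.1 FPKM). Markers of atrial muscle and of other cell types also moved with age in the same libraries. Of 8 atrial muscle markers all 8 were higher (summed FPKM 294 and 294 when young, 4484 and 1742 when aged). Of 8 endothelial markers all 8 were lower (322 and 318 against 157 and 155 FPKM), and of 9 tested fat-cell markers 7 were higher and 1 lower (196 and 218 against 263 and 275 FPKM). The lower fat-cell marker, Fabp4 (139.9 and 167 against 83.3 and 94.8 FPKM), held the largest share of that sum, which therefore mixes opposite changes. Of 6 fibroblast markers 1 was higher (152 and 150.4 against 199.5 and 179 FPKM), and of 5 tested macrophage markers 2 were higher (56.4 and 47.9 against 51.7 and 62.9 FPKM). Skeletal muscle markers (3 tested, 1 lower, 717 and 666 against 798 and 627 FPKM) and liver markers (2 tested, 1 higher, 5.94 and 3.79 against 11.8 and 24.3 FPKM) were examined as well. The skeletal muscle sum was mostly Ckm (562 and 509.5 against 406 and 462 FPKM) and Acta1 (151 and 154 against 389 and 162 FPKM). Myh1 and Myh4 stayed below 1 FPKM in every library. The liver marker called higher was Cyp2e1 (1.83 and 0.542 against 8.41 and 20.2 FPKM). Ttr was not called, and Alb and Apoa1 stayed below 1 FPKM. No marker found in the table was at 0 in every library. The part of these shifts in the results on the coenzyme Q genes was not tested. In RNA from heart tissue, the share of atrial muscle or of a cell type in the sample and its RNA per cell cannot be told apart.

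**Figure D1:**
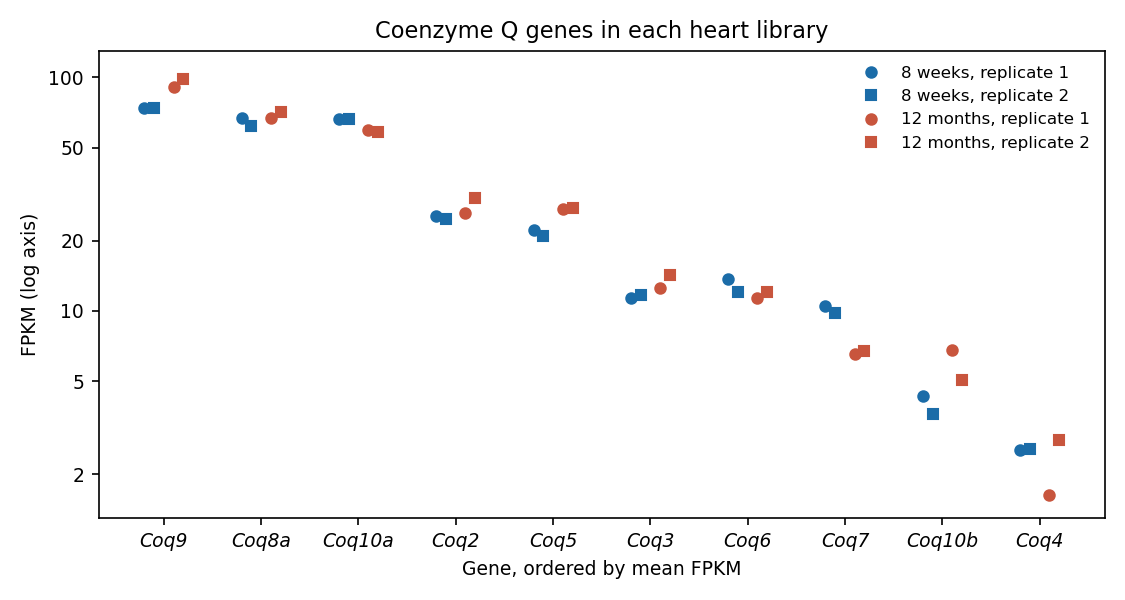
FPKM (log axis) of each coenzyme Q gene in each of the 4 libraries, with genes ordered by mean FPKM, colours marking age and symbols marking the replicate. Coq9, Coq8a and Coq10a lie near or above 60 FPKM throughout, and Coq7 is the gene in which both aged points (6.57 and 6.73) lie furthest below both young points (10.5 and 9.77).

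The members differed far more among themselves than between ages. Per length, Coq9, Coq8a and Coq10a made up 69.7% and 70.4% of the summed FPKM of the 10 genes at 8 weeks and 70.1% and 69.8% at 12 months. They ranked 347th, 425th and 457th by mean FPKM among the 12027 tested genes. Coq4 was the least abundant and ranked 8804th, with Coq10b at 5587th and Coq7 at 3575th between. The summed level of the 10 genes was 297 and 287 FPKM at 8 weeks and 309.9 and 327 FPKM at 12 months. Over all genes, FPKM summed to 549019 and 546455 at 8 weeks and to 494057 and 496506 at 12 months. FPKM levels of the 2 ages are therefore not on one total unless stated as rescaled. Some neighbours in this order were not separate. The levels of Coq8a and Coq10a overlapped at 8 weeks and not at 12 months, and those of Coq2 and Coq5 overlapped at 12 months and not at 8 weeks. Coq6 lay above Coq3 in both young libraries and below it in both aged ones, although neither gene was called. The 10 genes lie on 8 chromosomes, so no cluster on 1 chromosome holds them.

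The hydroxylase Coq7 was at 10.5 and 9.77 FPKM at 8 weeks (3896 and 4403 counts) and at 6.57 and 6.73 FPKM at 12 months (2531 and 2406 counts). Both aged libraries lay below both young ones, and the gap between ages was several times the difference within either age. The mean went from 10.1 ± 0.482 to 6.65 ± 0.109 FPKM (SD, n = 2 libraries each). The log2 fold change was -0.66 ± 0.07 (SE), a change of -36.8% (95% interval -44.2% to -28.5%), with an edgeR adjusted p of 0.00206. Coq7 was called lower under every one of the 15 alternatives run, with log2 fold changes from -0.73 to -0.41, and in all 4 fits that left out a library. The gene lies on chromosome 7 at 118509659 to 118533301 (GRCm38, minus strand), and no other gene of the table overlaps it.

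The 250 bases upstream of the RefSeq start of Coq7 are shown because it was the member with the largest called change. They read 5′ to 3′ on the gene's strand, at chr7:118533357-118533606 of GRCm38.p6. Capitals mark CCAAT, the box bound by the factor NF-Y, which begins at positions -56 and -25 from the RefSeq start. That start lies upstream of the 5′ end given above for the gene as counted (118533301), so the positions hold for the RefSeq start only.
Coq7: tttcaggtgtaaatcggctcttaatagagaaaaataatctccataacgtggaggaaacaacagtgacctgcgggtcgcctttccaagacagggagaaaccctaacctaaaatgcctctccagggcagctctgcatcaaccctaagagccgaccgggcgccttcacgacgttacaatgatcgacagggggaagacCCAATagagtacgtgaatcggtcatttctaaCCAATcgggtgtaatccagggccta
RefSeq windows of 300 bases (250 before to 50 after a start) were held for 9 members, in 12 windows, with none for Coq5. On either strand, CCAAT was found in 4 of the 12 member windows (Coq6, Coq7, Coq8a and Coq10b), against 37.4% of all 32851 windows. The core of the motif of the nuclear respiratory factor NRF1, TGCGCA, was found for Coq2, Coq3 and Coq8a (7.76% of all windows), and that of the respiratory factor GABPA, CCGGAAG, for Coq6 (8.86%). The core of the motif of the oestrogen-related receptors, AAGGTCA, was found for Coq10a (4.72% of all windows). A match describes letters only and is no evidence of binding.

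Coq9 was the most abundant member. It was at 74.2 and 74.1 FPKM at 8 weeks and at 90.9 and 98.3 FPKM at 12 months. Both aged libraries lay above both young ones, and the young pair was almost equal. The log2 fold change was 0.29 ± 0.08 (SE), a change of 22.5% (95% interval 7.88% to 39.1%), with an edgeR adjusted p of 0.0265. It no longer passed without young replicate 1 (adjusted p = 0.17), without young replicate 2 (adjusted p = 0.178) and with a minimum of 5 FPKM (adjusted p = 0.0522), while the estimate stayed between 0.24 and 0.49 over the 15 alternatives. Coq9 lies on chromosome 8 at 94838321 to 94854895 (plus strand), and its 5′ end overlaps that of Ciapin1, an iron-sulphur cluster assembly factor on the opposite strand, by 38 bases.

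The start of the Coq9 coding sequence is shown because it holds the single match among the members to AAGATGG, the core of the motif of the factor YY1, found in 6.34% of all windows. The 30 bases are at chr8:94838410-94838439 of GRCm38.p6 on the plus strand, with the match in capitals, and the match spans the start codon ATG.
Coq9: cccacttccAAGATGGcggcgacagcagcc

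Because Coq7 and Coq9 moved in opposite directions, the ratio of their FPKM levels shifted more than either gene. The Coq9 to Coq7 ratio was 7.09 and 7.58 at 8 weeks and 13.8 and 14.6 at 12 months. Both aged ratios were well above both young ones, and the mean ratio was 1.94 times as high at 12 months. This ratio was chosen after the values of both genes were seen and is given as a description, with no test.

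**Figure D2:**
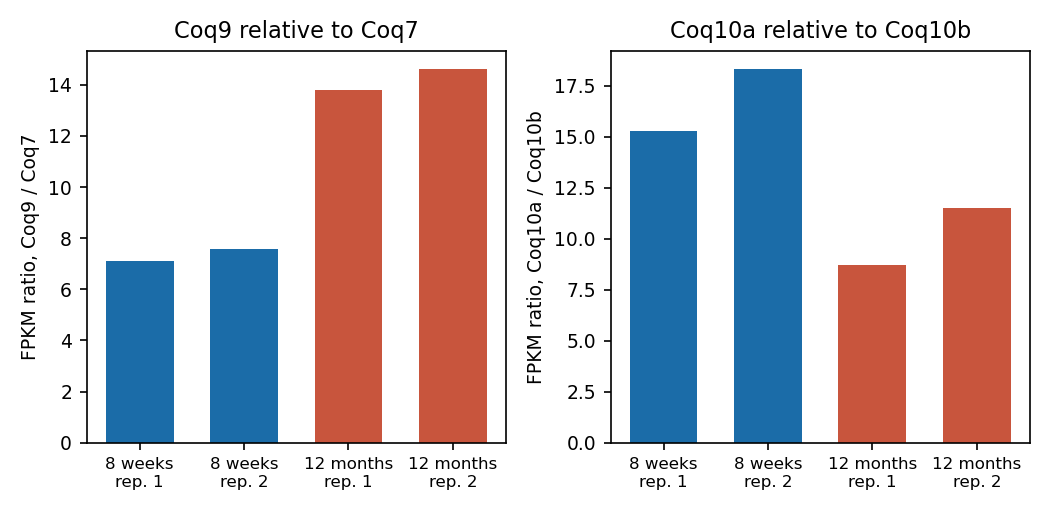
Ratio of FPKM between Coq9 and Coq7 (left) and between the paralogs Coq10a and Coq10b (right) in each library, with bars starting at 0 and colours marking age. The Coq9 to Coq7 ratio is higher in both aged libraries (13.8 and 14.6) than in both young ones (7.09 and 7.58), and the Coq10a to Coq10b ratio is lower (8.72 and 11.5 against 15.3 and 18.3).

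Among the ring-modifying enzymes, Coq5, the C-methyltransferase, was at 22.1 and 20.9 FPKM at 8 weeks and at 27.3 and 27.5 FPKM at 12 months. The ages did not overlap. Its log2 fold change was 0.29 ± 0.07 (SE), a change of 22.4% (95% interval 8.78% to 37.8%), with an edgeR adjusted p of 0.0213. Coq5 did not pass when young replicate 1 was left out (adjusted p = 0.0677), nor without young replicate 2 (adjusted p = 0.137), without aged replicate 1 (adjusted p = 0.0648) or with no minimum on expression (adjusted p = 0.055). Coq5 lies on chromosome 5 at 115279666 to 115296972 (plus strand).

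Coq2, which joins the prenyl tail to the ring precursor, was at 25.6 and 24.7 FPKM at 8 weeks and at 26.2 and 30.5 FPKM at 12 months, with a log2 fold change of 0.11 ± 0.08 (SE; edgeR adjusted p = 0.336). The higher aged value was that of replicate 2. Coq3, the O-methyltransferase of the ring, was at 11.4 and 11.7 against 12.5 and 14.2 FPKM, with a log2 fold change of 0.15 ± 0.09 (edgeR adjusted p = 0.221). Neither pair of ages overlapped, yet neither gene passed the test, and the 95% intervals allow changes of -6.36% to 24.7% for Coq2 and of -4.23% to 28.1% for Coq3. Coq6, the flavin-dependent monooxygenase that hydroxylates the ring, was at 13.7 and 12.0 FPKM at 8 weeks and at 11.4 and 12.1 FPKM at 12 months, so the ages overlapped (log2 fold change -0.18 ± 0.10, edgeR adjusted p = 0.175). Coq2 lies on chromosome 5 at 100654723 to 100674284 (minus strand), Coq3 on chromosome 4 at 21879673 to 21912162 (plus strand) and Coq6 on chromosome 12 at 84361657 to 84373796 (plus strand).

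Of the proteins that organise or regulate the pathway, Coq4, which is needed for a stable assembly of COQ proteins, was at 2.53 and 2.56 FPKM at 8 weeks and at 1.63 and 2.79 FPKM at 12 months. Aged replicate 1 (334 counts) lay below both young libraries and aged replicate 2 (530 counts) above both. The log2 fold change of -0.26 ± 0.25 (SE; edgeR adjusted p = 0.433) was -0.68 and called without aged replicate 2 (adjusted p = 0.0282), and 0.04 without aged replicate 1 (adjusted p = 0.88), so its direction rested on 1 library. Coq8a, an atypical kinase-like ATPase of the UbiB family that is enriched in muscle, was at 66.8 and 62.0 FPKM at 8 weeks and at 67.0 and 71.4 FPKM at 12 months. Its log2 fold change was 0.04 ± 0.08 (edgeR adjusted p = 0.688), the smallest of the 10, and its 95% interval allows changes from -9.97% to 18.2%. Coq4 lies on chromosome 2 at 29787493 to 29797935 (plus strand) and Coq8a on chromosome 1 at 180165238 to 180199602 (minus strand).

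The paralogs Coq10a and Coq10b encode lipid-binding proteins of the START family that coenzyme Q needs for its function in respiration, as shown for the yeast protein Coq10. Coq10a was at 66.1 and 66.2 FPKM at 8 weeks and at 59.5 and 58.6 FPKM at 12 months. Coq10b was at 4.32 and 3.62 FPKM at 8 weeks and at 6.82 and 5.08 FPKM at 12 months. Coq10a was thus the lower and Coq10b the higher at 12 months with no overlap of ages, yet both lay just outside the threshold. The log2 fold changes were -0.22 ± 0.07 for Coq10a (edgeR adjusted p = 0.0533) and 0.53 ± 0.17 for Coq10b (edgeR adjusted p = 0.0569), both with an unadjusted p below 0.05. DESeq2's Wald test called both (adjusted p = 0.0127 and 0.0203). The Coq10b estimate differed with the aged library left out: it was 0.74 and called without aged replicate 2 (adjusted p = 0.00488), but 0.26 and not called without aged replicate 1 (adjusted p = 0.195), and it was 0.40 without young replicate 2 (adjusted p = 0.236). Coq10a was called in 5 of 15 alternatives, among them the fit without aged replicate 1 (adjusted p = 0.0312), and on FPKM rescaled to one sum it was at -0.02 (limma adjusted p = 0.844). The Coq10a to Coq10b ratio of FPKM was 15.3 and 18.3 at 8 weeks and 8.72 and 11.5 at 12 months, so Coq10a remained the far more abundant paralog at both ages. Coq10a lies on chromosome 10 at 128363100 to 128368954 (minus strand). Coq10b lies on chromosome 1 at 55052770 to 55072702 (plus strand), and holds a predicted gene on the same strand, Gm17971, with 19 to 43 counts a library.

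**Figure D3:**
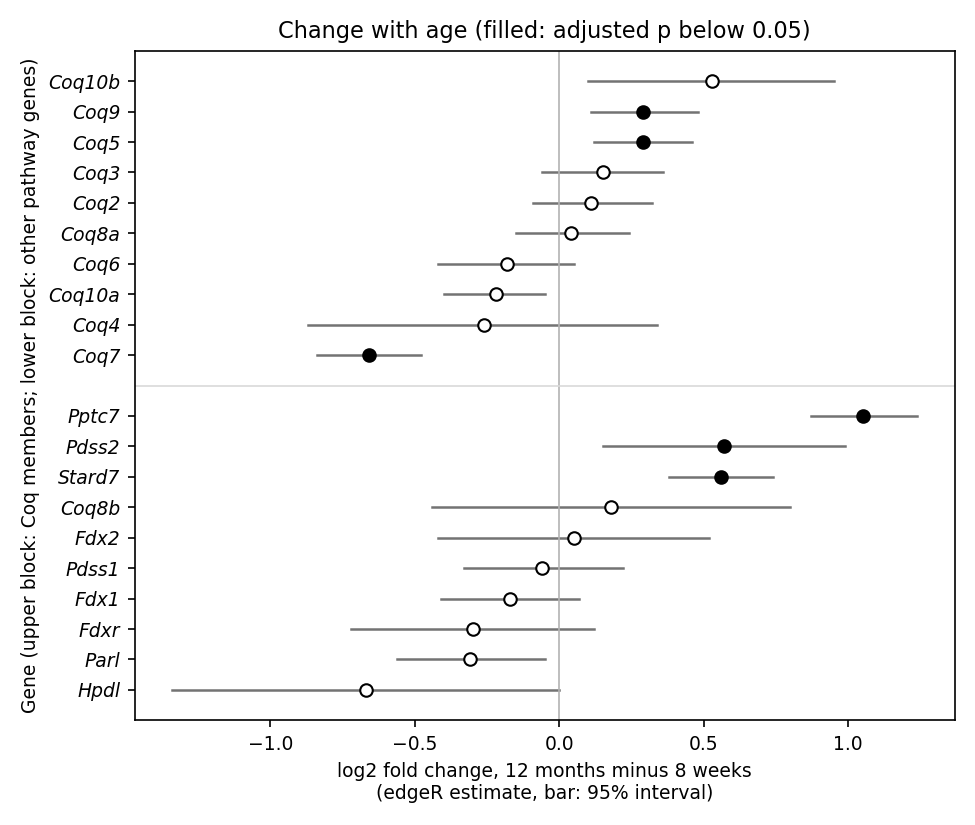
Log2 fold change (12 months minus 8 weeks, edgeR estimate, bars are 95% intervals) of the 10 coenzyme Q members (upper block) and of 10 other genes of coenzyme Q synthesis and its control (lower block), with filled points for an adjusted p below 0.05. Among the members Coq7 (-0.66), Coq5 (0.29) and Coq9 (0.29) are filled, and Pptc7 (1.05) has the largest estimate of both blocks.

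The 5′ ends of several members lie beside that of another gene. A gene on the opposite strand starts within 1000 bases of 4 members (Coq4, Coq6, Coq9 and Coq10b), as it does for 22.3% of tested genes. Ciapin1, beside Coq9, was at 4.75 and 4.05 FPKM at 8 weeks and at 5.97 and 5.66 FPKM at 12 months, and was called higher as Coq9 was (log2 fold change 0.35 ± 0.10, edgeR adjusted p = 0.0417). That call held in 6 of 15 alternatives. Trub2, a mitochondrial pseudouridine synthase beside Coq4, was also called higher (1.54 and 1.57 against 2.19 and 2.35 FPKM, log2 fold change 0.48 ± 0.11, edgeR adjusted p = 0.0211), in 11 of 14 alternatives, while Coq4 was not called. Fam161b, beside Coq6, was not called (0.02 ± 0.12, edgeR adjusted p = 0.896), and E330011M16Rik, beside Coq10b, had 0 to 22 counts a library. Because the libraries were stranded but the strand setting of the counting is not given in the sources used here, reads may be shared where such genes overlap.

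Outside the 10 members, 10 further genes make the tail or other parts of coenzyme Q or control the pathway. Of these, 3 were called higher and 0 lower in edgeR, against 20.1% and 17.5% of all tested genes. Their median log2 fold change was -0.005. At an unadjusted p below 0.05, 2 were lower (Parl and Hpdl), DESeq2 called 0 lower, and limma on log2(FPKM + 1) called 1 lower, Hpdl. Pptc7, a mitochondrial phosphatase whose yeast counterpart acts on Coq7, was at 13.8 and 14.2 FPKM at 8 weeks and at 31.0 and 29.5 FPKM at 12 months. Both aged values were above both young ones by a wide margin (log2 fold change 1.05 ± 0.07, edgeR adjusted p = 0.0012), and the call held in all 15 alternatives. Stard7, a lipid transfer protein that carries phosphatidylcholine and has been tied to coenzyme Q transport in human cells, rose from 15.8 ± 0.77 to 24.3 ± 1.08 FPKM (0.56 ± 0.07, edgeR adjusted p = 0.00349, called in all 15). Parl, the inner-membrane protease that processes Stard7 in human cells, was at 6.88 and 7.85 against 6.44 and 5.96 FPKM (-0.31 ± 0.11, edgeR adjusted p = 0.0651), and was called lower in 3 of 15 alternatives.

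The tail synthase is a complex of Pdss1 and Pdss2, and these differed. Pdss2 rose from 2.61 and 1.89 FPKM at 8 weeks to 3.53 and 3.42 FPKM at 12 months (log2 fold change 0.57 ± 0.17, edgeR adjusted p = 0.0443), a call that held in 7 of 14 alternatives. Pdss1 was at 3.94 and 4.05 against 4.19 and 3.80 FPKM (-0.06 ± 0.11, edgeR adjusted p = 0.711). The difference between these 2 changes was not tested. Coq8b, the paralog of Coq8a, was at 0.775 and 1.08 against 1.28 and 0.907 FPKM, so Coq8a exceeded it 52.4 to 86.2 times per length over the 4 libraries. Hpdl, an enzyme of ring precursor synthesis in human cells, was at 1.32 and 1.29 against 0.884 and 0.811 FPKM without passing (edgeR adjusted p = 0.101). The ferredoxins Fdx1 and Fdx2 and the ferredoxin reductase Fdxr, mitochondrial electron carriers, did not pass either (log2 fold changes -0.17, 0.05 and -0.30, edgeR adjusted p = 0.226, 0.857 and 0.214). Of the other ADCK genes, relatives of Coq8a, Adck2 was called lower (-0.40 ± 0.12, edgeR adjusted p = 0.0403), a call that was lost in all 4 fits without a library, and Adck1 and Adck5 were not called.

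Of 11 genes of the mevalonate pathway and its squalene branch, 1 was called higher and 0 lower in edgeR, against 20.1% and 17.5% of all tested genes. Their median log2 fold change was 0.13. None was lower at an unadjusted p below 0.05 (0 of 11), and DESeq2 and limma called 0 lower. The number called higher was 2 with limma on log2(FPKM + 1) and 5 when FPKM were also rescaled to one sum, which raised the median of all genes to 0.16. The gene called higher in edgeR was Hmgcs1, the synthase that makes the precursor of mevalonate, which went from 7.15 ± 0.0594 to 9.95 ± 0.168 FPKM (0.42 ± 0.07, edgeR adjusted p = 0.00777) and lost its call without either young library.

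The enzymes that pass electrons to coenzyme Q and the complex that takes them off differed in their counts. Among all tested genes, 20.1% were called higher and 17.5% lower in edgeR. Of 13 tested genes of coenzyme Q reduction outside complex I, 6 were called higher and 2 lower, with a median of 0.35. They included Etfdh, which hands electrons from fatty acid oxidation to coenzyme Q, from 38.0 ± 0.544 to 66.2 ± 0.605 FPKM (0.74 ± 0.07, edgeR adjusted p = 0.00165), and Aifm2, a coenzyme Q reductase that protects membranes from lipid peroxidation, from 5.21 ± 0.0953 to 7.86 ± 0.302 FPKM (0.53 ± 0.09, edgeR adjusted p = 0.00631). The 2 that fell were Etfb (-0.85) and Sdhb (-0.44), the iron-sulphur subunit of complex II, although Sdha of the same complex rose (0.68). Etfb forms with Etfa the carrier that delivers electrons to Etfdh, and Etfa was called higher (0.35, edgeR adjusted p = 0.0153). Without young replicate 2 the genes of coenzyme Q reduction called higher numbered 3. Sdhb no longer passed in the fit that left out young replicate 1 (-0.35, adjusted p = 0.126), on rescaled FPKM (-0.24, adjusted p = 0.113) and with limma on log2(FPKM + 0.1) (adjusted p = 0.0631). Of 10 complex III genes, 8 were called lower and 1 higher, with a median of -0.50, led by the small subunits Uqcrq (-1.14) and Uqcr11 (-1.08). The one higher was the core subunit Uqcrc2 (0.25, called in 8 of 15 alternatives and not without young replicate 1 or young replicate 2, adjusted p = 0.201 and 0.267). The count of complex III genes called lower was 4 with young replicate 1 left out and 4 on FPKM rescaled to one sum, while Uqcrq and Uqcr11 were called in all 15 alternatives.

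Of 8 regulators of mitochondrial gene expression, 5 were called higher and 0 lower in edgeR, against 20.1% and 17.5% of all tested genes. At an unadjusted p below 0.05, 0 of the regulators were lower, and DESeq2 and limma called 0 of them lower. Those higher were Ppara, a nuclear receptor of fatty acid oxidation (log2 fold change 2.32 ± 0.19), Esrrg, an oestrogen-related receptor (1.49 ± 0.11), Ppargc1a, their coactivator (1.08 ± 0.07), Tfam, the mitochondrial transcription factor (0.40 ± 0.08), and Gabpa (0.29 ± 0.08). The adjusted p of edgeR ran from 0.0012 to 0.0267. Leaving out either young library brought the count called higher to 3, since Tfam (adjusted p = 0.0745 and 0.0801) and Gabpa (adjusted p = 0.167 and 0.111) were not called there, and Gabpa was called in 9 of 15 alternatives. The 10 members spanned -0.66 to 0.53 in the same libraries.

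**Figure D4:**
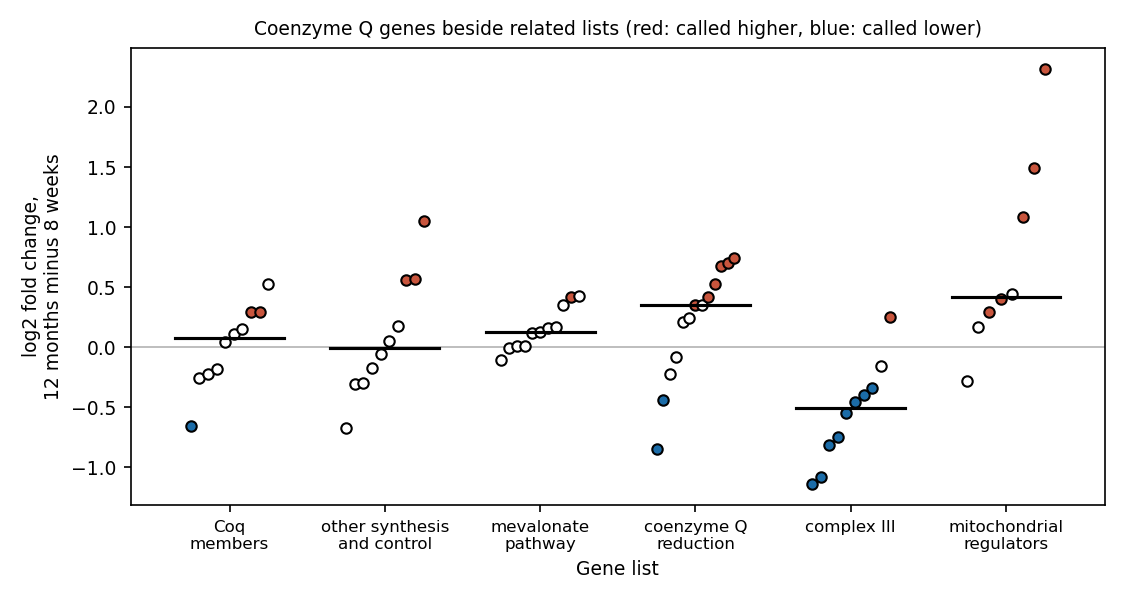
Log2 fold change (12 months minus 8 weeks) of each tested gene of 6 lists, with the black bar at the list's median, red points called higher and blue points called lower. The medians are 0.08 for the Coq members, -0.005 for other synthesis and control genes, 0.13 for the mevalonate pathway, 0.35 for coenzyme Q reduction, -0.50 for complex III and 0.42 for mitochondrial regulators.

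**Figure D5:**
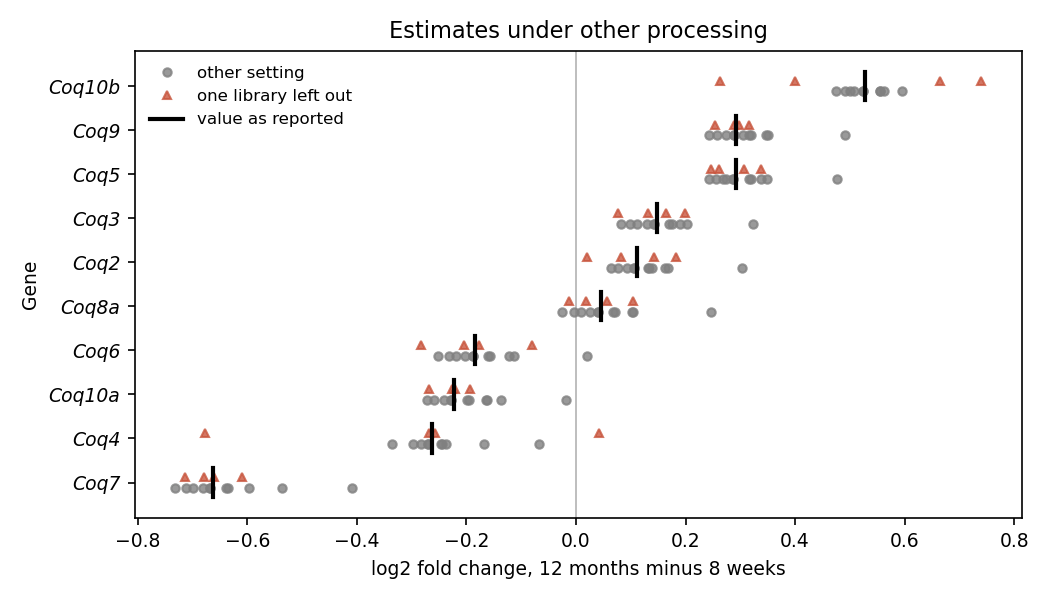
Log2 fold change (12 months minus 8 weeks) of each member as reported (black line), under other processing settings (grey circles) and with one library left out (red triangles). All points of Coq7 lie between -0.73 and -0.41, while those of Coq4 run from -0.68 to 0.04.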

How the data were processed

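The members and lists were chosen with earlier results of these data known. Per the file headers, the deposited table holds FPKM and estimated counts per gene for each library, made by the authors. The deposited expected counts are whole numbers. Per the submitters' processing notes, the tools were HISAT2 2.2.1, StringTie 2.1.6, cutadapt 1.9, edgeR and DESeq2 with build GRCm38, roles not given. Of the value columns, 0 had no label. Per the labels' protocols, libraries were poly(A)-selected and stranded.

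Groups came from the ages given in the label field named batch. Genes with a mean of at least 1 FPKM over the 4 libraries (12027) were tested with edgeR 4.0.16 (R 4.3.3), TMM scaling and age as the only term, two-sided. SE was computed as the absolute log2 fold change over √F, and 95% intervals use 2 residual and 4.03 prior degrees of freedom. The code was tested on simulated data. A count of 0 allows up to 0.047 to 0.0584 CPM (3 counts), counting error only. Alternatives used limma 3.58.1, DESeq2 1.42.0 and mgcv 1.9.3 (length trend). FPKM compare levels between genes. All 10 members, all genes of the first further list and up to 5 of each other list with the smallest p were named. Genes beside members were chosen by position. Etfa, Uqcrc2, Adck1, Adck5, Fabp4 and the other cell markers given by name were chosen after their values were seen. A result for 1 gene is not reported here. Of the members, 7 overlap another gene of the table, 1 of them on the same strand. Summaries used matplotlib 3.10.9, scipy 1.17.1, pandas 2.3.3 and numpy 2.4.6 in Python 3.11.15. Promoter sequences are RefSeq's, GRCm38.p6.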

Additional observations from a re-analysis of the deposited data

How the results depend on the processing

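No paired analysis was possible because the labels give no numbers that pair the libraries. Over 15 alternatives, 126 of 148 member estimates kept their direction and side of the threshold, 7 lost a call, 10 gained one and 5 changed sign. Members called higher (2 as reported) numbered 1 with no expression minimum, 1 at a minimum of 5 FPKM, 3 with DESeq2's test, 4 when FPKM were rescaled to one sum, and 0 to 3 in the 4 fits that each left out 1 library. Members called lower (1 as reported) numbered 2 with upper-quartile scaling, 2 at a minimum of 5 FPKM, 2 with DESeq2's test, 2 without mitochondrial genes and their chromosome 1 copies, and 1 to 2 in the fits without a library. The second was Coq10a in each case except without aged replicate 2, where it was Coq4. Of all genes, 2416 were called higher and 2104 lower. Rescaling moved the median of all genes to 0.16 (3786 higher, 1079 lower), with Coq7 at -0.41. A minimum of 5 FPKM left 1469 higher among 5549 genes and 8 members. The fits without a library called 1187 to 2514 genes higher and 890 to 2144 lower, with the lower ends without young replicate 1. The cause of these shifts was not tested. Sign changes, in genes that were not called, were Coq8a at -0.004 with a 5 FPKM minimum, -0.025 with the length trend removed and -0.012 without young replicate 2 (up to 0.1038 without the others), Coq4 at 0.0427 without aged replicate 1 (-0.6769 without aged replicate 2), and Coq6 at 0.0208, Pdss1 at 0.115 and Fdx1 at 0.0341 after rescaling. Fam161b was at -0.0136 with upper-quartile scaling and -0.0471 with the length trend removed. Over the fits without a library, Pdss1 ran from -0.1629 to 0.0263, Coq8b from -0.1224 (without young replicate 1 at -0.0254) to 0.4288, Fdx2 from -0.1212 to 0.2448 and Fam161b from -0.0466 to 0.0963. Genes other than members were put through these alternatives after the data were seen.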
